A study of Amphiura filiformis with 28 samples.

Results

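The 8 genes described here are the members of a curated stemness list that lie on chromosome 1 of the brittle star Amphiura filiformis, an echinoderm that regrows lost arms. They were taken by 3 conditions: the annotation puts the gene on chromosome 1, it marks the gene as a stemness gene and not as an immune or kinase gene, and the gene has a row in both expression tables. The annotation sheet used here covers chromosome 1 alone, with 1193 genes, of which 1125 are in both tables, and the tables share 28249 genes in all. The list was made by the study from human counterparts of genes that stem cells of a sponge, a hydra and a planarian have in common, so membership rests on sequence similarity and not on the values below. Gene names come from the best match in a protein database and give a likeness, not a proven function in the brittle star.

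Polyadenylated RNA was sequenced from wild-type, untreated animals in 2 experiments. In the first, a severed arm piece (explant) with a wound at each end was cultured and then cut into a distal, a medial and a proximal segment at 3 or 5 days post amputation (dpa). The distal end regenerates, the proximal end closes its wound without regenerating, and the medial segment carries no cut made at the start of culture. There were 4 distal, 4 medial and 3 proximal samples at 3 dpa and 3 of each at 5 dpa, 20 in all, each a pool of pieces from many arms. In the second, whole animals gave 1 pooled sample for each of 8 conditions: a control (a mature, non-regenerating arm segment in the study's methods, although its tissue label reads as an explant), 48 and 72 hours post amputation (hpa), regeneration stages 3, 4 and 5, and the distal and proximal parts of regenerates at 50% differentiation. All values are TPM, a transcript abundance corrected for gene length and depth, that the authors rescaled between samples by the trimmed mean of M-values (TMM), a method that assumes most genes do not change. Each table was rescaled by itself, so a level in one table was not compared with a level in the other. In whole tissue, a change in the share of a cell type and a change in RNA per cell cannot be told apart.

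As background, stem cells and other dividing cells of many animals make ribosomes at a high rate. RNA polymerase I transcribes the long precursor of ribosomal RNA in the nucleolus, a large particle trims and folds it, ribosomal proteins join it, and aminoacyl-tRNA synthetases load the amino acids that the finished ribosome uses. The stemness genes of chromosome 1 fall on most steps of this route, with a splicing factor, a histone deacetylase, a DNA repair nuclease and a protease beside them. All 8 belonged to the oldest class of gene age in the annotation, the one shared by cellular organisms, as did 53.1% of the chromosome 1 genes.

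The members differed in level by several orders of magnitude. Over the 20 explant samples, the ribosomal protein gene Rl3 averaged 2447 TPM, Ptbp1-2 27.8, Sylc 13.4, Diexf 4.71, Ide 3.32, Hdac3 3.23, Rpa1-1 2.09 and Exo1-4 0.292. A gene entered the test when it reached a value of 1 in at least 3 samples, which 21442 of the 30090 genes of the explant table did. Of the members 7 of 8 entered it. Exo1-4 reached 1 in 0 samples and is described by its values. Differences between groups were tested with limma on log2(value + 1), with p-values adjusted by Benjamini and Hochberg over all genes tested. A gene passed the test at an adjusted p under 0.05 and was called when its log2 fold change was also beyond 1; on this scale a fold change understates that of a gene near 1 TPM. Each replicate is a pool, so the p-values measure the spread between pools and not between animals. In the study's methods each explant gave all 3 segments, so pools of different segments may share explants. The main fit treats all pools as unpaired.

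The members that passed the test as higher in distal than in medial segments have names of ribosomal RNA synthesis, its processing and tRNA charging. Effect size did not follow this line. Hdac3, which did not pass, had log2 fold changes of 0.54 at 3 dpa and 0.55 at 5 dpa, beside 0.57 and 0.54 for Rpa1-1. Rl3, a ribosomal protein gene, did not pass at either day. At 3 dpa, 3 of the 7 members tested passed the test as higher in distal segments, and 5.04% of all genes did. The same 3 genes, Rpa1-1, Diexf and Sylc, passed at 5 dpa, when 8.4% of all genes did. No member passed as lower at 3 or 5 dpa, where 2.53% and 5.79% of all genes did. Diexf alone was called, at each day, beside 1.7% of all genes called higher at 3 dpa and 3.42% at 5 dpa. At 5 dpa 733 genes were called higher and 440 lower in all, and rescaling each sample to the same total turned this to 386 and 578, with the median of all genes at −0.11 on the log2 scale. The median log2 fold change of the 7 members was 0.54 at 3 dpa and 0.55 at 5 dpa, and that of all genes was 0.01 at both. Distal and medial samples did not overlap for 4 of 7 members at 3 dpa, where distal was above medial in each (10.1% of all genes), and for 5 of 7 at 5 dpa (15.5% of all genes).

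**Figure D1:**
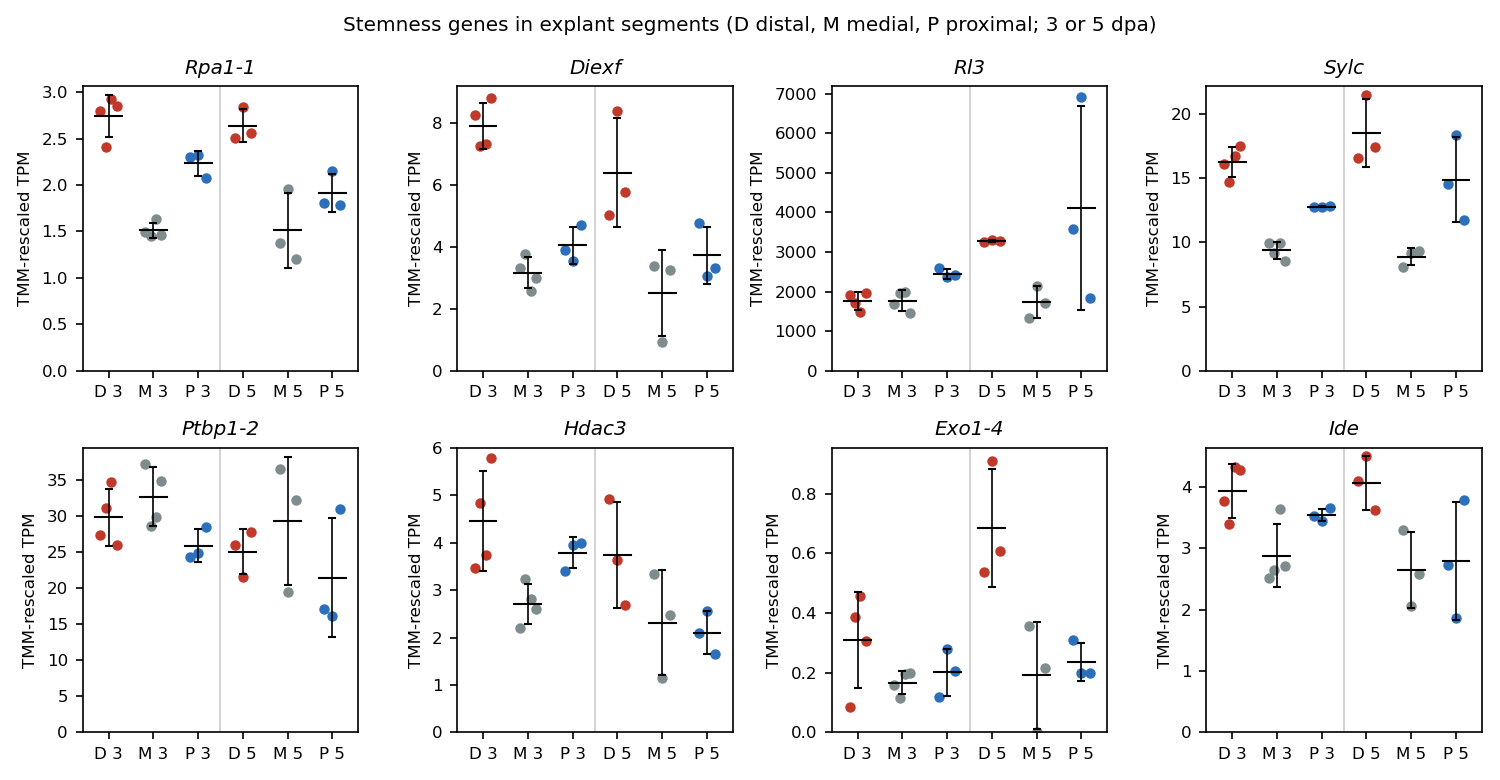
Levels of the 8 stemness genes in the 20 explant samples (vertical axes, TMM-rescaled TPM from 0; horizontal axes, segment and day). Points are samples, long bars group means and error bars 1 SD of 3 or 4 samples. For Rpa1-1, Diexf and Sylc every distal sample stands above every medial sample of the same day, and proximal samples of Sylc lie between 11.8 and 18.4 TPM, above the medial ones.

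Rpa1-1 (AFI29839; chromosome 1, 46698919 to 46724422, plus strand, in the study's own assembly) resembles the largest subunit of RNA polymerase I. At 3 dpa its 4 distal samples read 2.80, 2.41, 2.92 and 2.84 TPM, and its 4 medial samples 1.49, 1.45, 1.64 and 1.46. The 3 proximal samples, at 2.30, 2.32 and 2.07, lay between these groups without touching either. Distal exceeded medial by a log2 fold change of 0.57 (SE 0.12, adjusted p = 0.005, limma), a ratio of means of 1.82. By 5 dpa distal samples read 2.51, 2.84 and 2.56 TPM, the medial samples 1.37, 1.96 and 1.20, and the proximal samples 1.80, 2.15 and 1.78. The distal excess over medial was again beyond the spread (log2 fold change 0.54, SE 0.14, adjusted p = 0.0123, limma), while proximal and medial samples overlapped. The adjusted p at 5 dpa rose to 0.0578 without distal replicate 2 and to 0.0522 without medial replicate 5. Rescaling each sample to the same total gave adjusted p values of 0.064 at 3 dpa and 0.275 at 5 dpa, and a fit of the 2 groups alone at 5 dpa gave 0.189.

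A neighbouring gene model carries the same name. Rpa1-2 (AFI31040; chromosome 1, 46724451 to 46736027, plus strand) begins 28 bases after Rpa1-1 ends, on the same strand, and holds the Pfam domain RNA_pol_Rpb1_5, a late domain of the large polymerase subunits. Rpa1-1 holds this domain as well, beside RNA_pol_Rpb1_1 to RNA_pol_Rpb1_4. Whether these are 2 genes or 2 pieces of 1 gene model was not tested, and their values should be read together. Rpa1-2 was also higher in distal than in medial segments, by a log2 fold change of 0.80 at 3 dpa (SE 0.16, adjusted p = 0.00387) and 0.81 at 5 dpa (SE 0.18, adjusted p = 0.00678, limma).

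Diexf (AFI31206; chromosome 1, 17325007 to 17356928, minus strand) carries a UTP25 domain and resembles the digestive organ expansion factor, a nucleolar protein of the particle that processes the precursor of the small ribosomal subunit. Its distal samples at 3 dpa read 8.24, 7.25, 7.30 and 8.79 TPM and its medial samples 3.32, 3.75, 2.57 and 2.98. Proximal samples, at 3.89, 3.54 and 4.71 TPM, overlapped the medial range and stayed below every distal sample. The log2 fold change of distal against medial was 1.10 (SE 0.22, adjusted p = 0.0039, limma), a ratio of means of 2.50. By 5 dpa distal samples were less alike, at 5.04, 8.38 and 5.75 TPM, against 3.39, 0.923 and 3.26 in medial and 4.78, 3.06 and 3.32 in proximal samples. The fold change was 1.14 (SE 0.26, adjusted p = 0.00595), and 0.75 without medial replicate 2, the sample at 0.923 TPM. It was 0.95 without distal replicate 2, and with either sample left out Diexf was not called. Nor was it in a fit of the 2 groups alone (adjusted p = 0.116) or after rescaling to the same total (adjusted p = 0.102).

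Rl3 (AFI31672; chromosome 1, 27658666 to 27666087, minus strand) resembles ribosomal protein L3 of the large subunit, a core piece of the site where peptide bonds form. Its distal samples at 3 dpa read 1923, 1717, 1477 and 1972 TPM and its medial samples 1695, 1956, 2000 and 1452, and the groups overlapped throughout. The 3 proximal samples, at 2600, 2364 and 2409 TPM, were above all of them. Distal samples of 5 dpa were nearly equal, at 3247, 3317 and 3282 TPM, and stood above the medial samples at 1342, 2146 and 1703 TPM. Proximal samples ranged more widely than any other group of this gene, at 3572, 6913 and 1851 TPM. The log2 fold change of distal against medial at 5 dpa was 0.95 (SE 0.32, adjusted p = 0.0533) and that of proximal against medial 1.07 (SE 0.32, adjusted p = 0.055, limma); neither passed. The spread of the proximal group enters both values: without proximal replicate 4 or replicate 5 the distal comparison had adjusted p values of 0.00717 and 0.00617, and without replicate 5 the proximal fold change was 1.55 (adjusted p = 0.000674), while without replicate 4 it was 0.60. Proximal replicate 4, the sample at 6913 TPM, also had the highest total of the 20 columns, 2976429 against 1024512 in the lowest. After rescaling to the same total the distal fold change was 0.77 (adjusted p = 0.00546) and the proximal one 0.63 (adjusted p = 0.0496).

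Sylc (AFI31336; chromosome 1, 50182860 to 50254374, plus strand) resembles the cytoplasmic leucyl-tRNA synthetase, which loads leucine onto its tRNAs. At 3 dpa its distal samples read 16.1, 14.7, 16.7 and 17.5 TPM, its proximal samples 12.7, 12.7 and 12.8 and its medial samples 9.94, 9.14, 9.91 and 8.55. The 3 groups formed 3 separate bands. Distal against medial gave a log2 fold change of 0.73 (SE 0.13, adjusted p = 0.0015), a ratio of means of 1.73, and proximal against medial 0.41 (adjusted p = 0.268, limma). At 5 dpa distal samples read 16.6, 21.5 and 17.4 TPM, proximal samples 14.5, 18.4 and 11.8, and medial samples 8.10, 9.19 and 9.30, so both wounded segments were wholly above the medial one. The distal fold change was 0.98 (SE 0.15, adjusted p = 0.00037), a ratio of means of 2.09, and the proximal one 0.67 (SE 0.15, adjusted p = 0.0171). Of the members, Sylc alone passed in proximal segments. It no longer passed without medial replicate 1 (adjusted p = 0.0511), proximal replicate 1 (0.0525) or proximal replicate 4 (0.0994), with the 2 groups fitted alone (0.391) and after rescaling to the same total, where the fold change was 0.26 (adjusted p = 0.554).

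Ptbp1-2 (AFI30550; chromosome 1, 21710686 to 21738172, plus strand) resembles the polypyrimidine tract-binding protein, which binds pyrimidine-rich RNA and represses the use of exons near it. It was the member whose mean was below the medial mean in distal and proximal segments at both days. At 3 dpa the medial samples read 37.3, 28.7, 30.0 and 34.9 TPM, the distal samples 27.4, 31.2, 34.8 and 26.1, and the proximal samples 24.4, 24.9 and 28.5. Medial samples of 5 dpa spread from 19.5 to 36.6 TPM, the distal ones from 21.6 to 27.8 and the proximal ones from 16.2 to 31.0. No comparison passed: the log2 fold change of distal against medial was −0.13 at 3 dpa (95% interval −0.55 to 0.30) and −0.18 at 5 dpa (−0.67 to 0.31), and that of proximal against medial −0.32 and −0.45, with adjusted p values of 0.675 and 0.266. Without proximal replicate 5, the sample at 31.0 TPM, the last was −0.73 with an adjusted p of 0.03, and without medial replicate 1 it was −0.27. A second gene model of this name, Ptbp1-1 (AFI29763; chromosome 1, 21480240 to 21707633, plus strand), ends 3052 bases before Ptbp1-2 begins, and it too had negative fold changes in distal segments, −0.33 at 3 dpa and −0.27 at 5 dpa (adjusted p = 0.334 and 0.435, limma).

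Hdac3 (AFI31262; chromosome 1, 7173073 to 7190452, plus strand) resembles histone deacetylase 3, which removes acetyl groups from histones within a corepressor complex. At 3 dpa every distal sample, at 3.47, 4.85, 3.74 and 5.78 TPM, was above every medial sample, at 2.21, 3.23, 2.82 and 2.60. The proximal samples read 3.41, 3.96 and 4.00 and shared the lower part of the distal range. The distal fold change of 0.54 on the log2 scale did not pass (95% interval 0.11 to 0.97, adjusted p = 0.121, limma). At 5 dpa the distal samples, at 4.91, 3.64 and 2.69 TPM, overlapped the medial samples at 3.33, 1.15 and 2.47, and the proximal samples read 2.11, 2.55 and 1.65, below all proximal samples of 3 dpa. The distal fold change was 0.55 (95% interval 0.06 to 1.04, adjusted p = 0.133), with 0.77 (adjusted p = 0.0419) without medial replicate 1 and 0.27 without medial replicate 2, the sample at 1.15 TPM. After rescaling to the same total it was 0.38 (adjusted p = 0.507, limma).

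Exo1-4 (AFI29731; chromosome 1, 57208604 to 57222156, minus strand) resembles exonuclease 1, which resects DNA during repair and replication. It was near the floor of the table. At 3 dpa its distal samples read 0.0852, 0.386, 0.456 and 0.308 TPM, its medial samples 0.158, 0.114, 0.195 and 0.200 and its proximal samples 0.119, 0.279 and 0.206. At 5 dpa the distal samples, at 0.537, 0.910 and 0.608 TPM, stood above medial samples at 0.358, 0 and 0.215 and proximal samples at 0.309, 0.198 and 0.200. In a fit without the filter on low values the difference of distal against medial on the log2(value + 1) scale was 0.51 at 5 dpa (SE 0.12, adjusted p = 0.0112) and 0.16 at 3 dpa (adjusted p = 0.505, limma). The depth behind such low values is not known from these tables, so their counting error cannot be given.

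Ide (AFI29843; chromosome 1, 51885301 to 51974623, minus strand) resembles the insulin-degrading enzyme, a zinc protease that cuts insulin and other short peptides. At 3 dpa distal samples read 3.77, 3.40, 4.32 and 4.28 TPM and medial samples 2.52, 2.64, 3.63 and 2.70, where 1 medial sample reached into the distal range. Proximal samples were close together, at 3.52, 3.45 and 3.66 TPM. At 5 dpa distal samples, at 4.09, 4.50 and 3.62 TPM, were above medial samples at 3.30, 2.06 and 2.59, and proximal samples, at 2.72, 1.86 and 3.79, spanned both. The log2 fold change of distal against medial was 0.35 at 3 dpa (95% interval 0.02 to 0.68, adjusted p = 0.204) and 0.48 at 5 dpa (0.10 to 0.87, adjusted p = 0.0842, limma). The latter passed without medial replicate 1 (0.61, adjusted p = 0.0468), and without proximal replicate 4 or 5 (adjusted p = 0.0486 and 0.0479). After rescaling to the same total the fold change at 5 dpa was 0.33 (adjusted p = 0.617, limma).

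**Figure D2:**
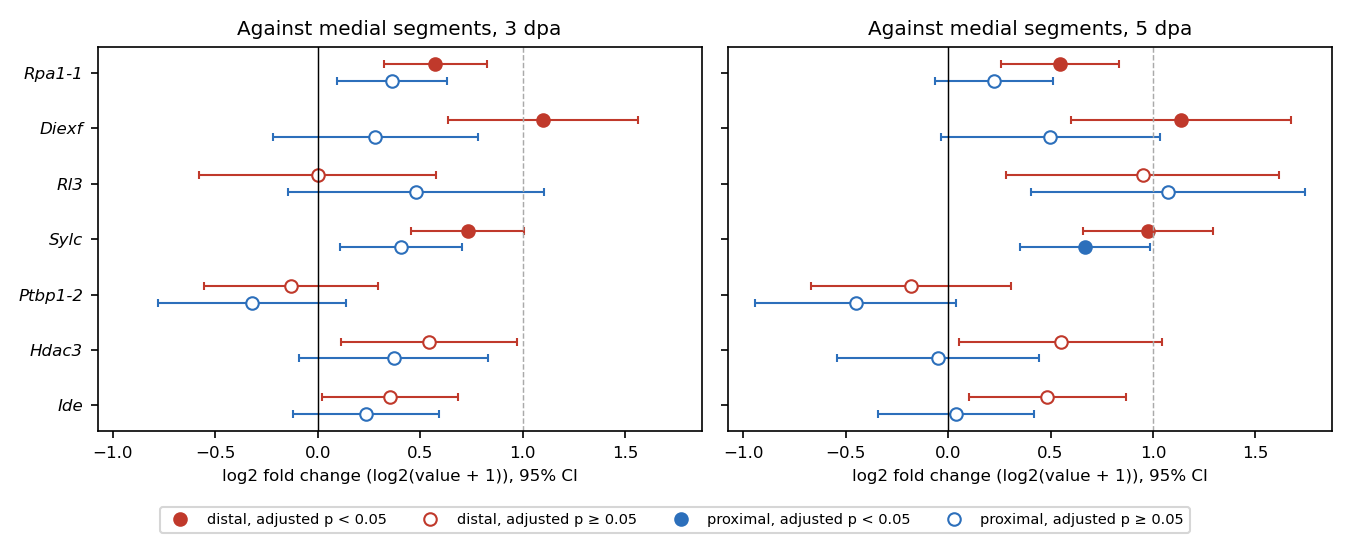
Log2 fold changes of distal (red) and proximal (blue) against medial segments at 3 dpa (left) and 5 dpa (right) for the 7 members tested, on the log2(value + 1) scale. Bars are 95% intervals from limma, filled points have an adjusted p under 0.05 and the dashed line marks a log2 fold change of 1. Diexf lies past the dashed line in distal segments at 1.10 and 1.14, and Sylc is the filled point of the proximal comparison, at 0.67.

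Proximal segments were set against medial ones in the same way. At 3 dpa 0 of 7 members passed the test in either direction with limma, where 0.672% of all genes passed as higher and 0.014% as lower; 2 members, and 10.4% of all genes, had an unadjusted p under 0.05. Yet proximal and medial samples did not overlap for 5 of the 7: Rpa1-1, Rl3, Sylc and Hdac3 were higher (9.06% of all genes were higher in this way) and Ptbp1-2 was lower (6.23% of all genes). The fold changes of these 4 higher genes were 0.36, 0.48, 0.41 and 0.37 on the log2 scale, with adjusted p values from 0.268 to 0.628. At 5 dpa 1 of 7 passed as higher, Sylc, and 3.83% of all genes did; 0 of 7 passed as lower, where 1.63% of all genes did. Over all genes 325 were called higher and 94 lower, and after rescaling to the same total 60 and 227, with the median of all genes at −0.27. Relative to that median the rescaled fold change of Sylc was 0.53. The proximal fold change of Diexf at 5 dpa was 0.50 (95% interval −0.04 to 1.03), and 0.11 without medial replicate 2 and 0.70 without medial replicate 1.

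Distal and proximal segments were also set against each other, since both carry a wound and the distal one regenerates. With limma, 0 of 7 members passed at 3 dpa (0.466% of all genes passed as higher in distal segments and 0.257% as lower) and 0 of 7 at 5 dpa (1.01% and 1.46%). At an unadjusted p under 0.05 the counts were 2 and 4, beside 9.23% and 14.3% of all genes. At 3 dpa the difference of Diexf was 0.82 on the log2 scale (95% interval 0.32 to 1.32, adjusted p = 0.157), and every distal sample was above every proximal one. It passed without medial replicate 2 of 5 dpa (adjusted p = 0.027), a sample that enters through the shared spread alone, and in a fit of the 2 groups alone (0.0194). After rescaling to the same total the difference was 0.97 and did not pass (adjusted p = 0.324, limma). At 5 dpa the difference of Diexf was 0.64 (95% interval 0.10 to 1.17), of Hdac3 0.60 (0.10 to 1.09), of Ide 0.45 (0.06 to 0.83), of Rpa1-1 0.32 (0.03 to 0.61) and of Sylc 0.31 (−0.01 to 0.63), with adjusted p values from 0.23 to 0.369. That a gene passed in distal and not in proximal segments is therefore not a shown difference between the wounded ends for any of these genes.

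The 2 days were compared within each segment. In distal, medial and proximal segments 0 of 7 passed between 3 and 5 dpa with limma, and 1, 0 and 1 had an unadjusted p under 0.05, as did 16.5%, 11.5% and 14.6% of all genes. Among all genes, 1.27% passed as higher and 0.788% as lower at 5 dpa in distal segments, 0.00466% as lower in medial and 0.0606% as higher and 0.0373% as lower in proximal segments. Rl3 was higher at 5 than at 3 dpa in every distal sample, by 0.90 on the log2 scale (95% interval 0.27 to 1.52, adjusted p = 0.128). Its adjusted p was 0.0269 without proximal replicate 4 of 5 dpa, 0.0211 without proximal replicate 5 and 0.0216 when the 2 groups were fitted alone. Column totals of the distal samples were also higher at 5 dpa, 1324627 to 1880536, than at 3 dpa, 1024512 to 1276269. The difference of Rl3 therefore depends on the scaling. Hdac3 differed by −0.63 in proximal segments (95% interval −1.13 to −0.14, adjusted p = 0.227). Rl3 in proximal segments differed by 0.54 (adjusted p = 0.445), and by 1.02 (adjusted p = 0.0276) without proximal replicate 5 of 5 dpa, but by 0.07 without proximal replicate 4. The change of the distal or proximal difference from medial between days was past the threshold for 0 of 7 members in each case (0.0886% of all genes as higher and 0.00466% as lower for distal segments, and none for proximal ones), with an unadjusted p under 0.05 for 1 and 0 members and for 7.56% and 5.02% of all genes; for Rl3 the distal difference changed by 0.95 (95% interval 0.07 to 1.83, adjusted p = 0.631).

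Of the 20 explant samples, 3 listed over 5000 genes at 0: medial replicate 2 at 3 dpa, medial replicate 2 at 5 dpa and proximal replicate 4 at 5 dpa. Without these 3, the same comparison of distal with medial segments had 3 members past the test at 3 dpa and 4 at 5 dpa, with Rl3 as the further one at 1.12 (adjusted p = 0.00682). The proximal comparison at 5 dpa had 0 members past the test, and Diexf differed between distal and proximal segments at 3 dpa (adjusted p = 0.0216).

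Other chromosome 1 genes of the same functions were counted from lists assembled by name. The lists were chosen with earlier results of these data known, so their counts are a description and not independent support for the members. Of 11 genes of ribosomal RNA synthesis and ribosome assembly, which include Rpa1-2, 10 passed as higher in distal than in medial segments at 3 dpa and 8 at 5 dpa, none passed as lower, and all 11 had positive fold changes at both days. Of all genes, 5.04% passed as higher at 3 dpa and 8.4% at 5 dpa. The median log2 fold change of the 11 was 0.94 at 3 dpa and 0.81 at 5 dpa, against 0.01 over all genes. Lyar, a nucleolar zinc finger protein, had the largest called change of this list at 3 dpa, 1.26 (SE 0.15, adjusted p = 4.01e-05), with a mean of 10.1 ± 0.706 TPM in distal and 3.61 ± 0.444 in medial samples (SD, n = 4). Wdr36, a scaffold of the small-subunit processome, the particle in which counterparts of Diexf act, led at 5 dpa with 1.13 (SE 0.16, adjusted p = 0.000171), at 5.25 ± 0.931 against 1.84 ± 0.278 TPM (SD, n = 3). In proximal segments 0 of the 11 passed at 3 dpa, where 0.672% of all genes passed as higher. There 6 of the 11, and 10.4% of all genes, had an unadjusted p under 0.05. At 5 dpa 3 of 11 passed as higher in proximal segments, and 3.83% of all genes did. The proximal count was 0 of 11 after rescaling to the same total, with the 2 groups fitted alone and without the 3 samples that list many genes at 0, and 0 to 7 with 1 sample left out. The distal count at 5 dpa was not firm either: it was 1 of 11 after rescaling to the same total, where the median log2 fold change was 0.66, and 3 of 11 with the 2 groups fitted alone, and it ranged from 6 to 10 with 1 sample left out. At 3 dpa the distal count stayed between 8 and 11 in these settings. Without the 3 samples the distal count was 10 of 11 at both days.

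Of 8 translation genes, 4 passed as higher in distal segments at 3 dpa and 5 at 5 dpa. Of all genes 5.04% and 8.4% did, and none of the 8 passed as lower. Like Sylc, the tRNA synthetases of this list passed at both days: Syep, the glutamyl-prolyl enzyme, by 0.65 at 3 dpa and 0.84 at 5 dpa (adjusted p = 0.00129 and 0.000437), and Sywc, the tryptophanyl enzyme, by 0.68 and 0.93 (adjusted p = 0.0418 and 0.0103, limma). Rt18a, a protein of the mitochondrial small ribosomal subunit, had the largest called change at 3 dpa, 1.10 (SE 0.19, adjusted p = 0.00091). The ribosomal protein genes Rl21 and Rl37 had fold changes near that of Rl3, 0.08 and 0.15 at 3 dpa and 0.65 and 0.86 at 5 dpa, and neither passed (adjusted p = 0.237 and 0.165 at 5 dpa). Syep, Sywc, Rl21 and Rl37 were picked for these sentences after their values were seen. At 3 dpa the count of the list was 1 of 8 after rescaling to the same total and 2 to 4 with 1 sample left out. At 5 dpa it was 2 of 8 after rescaling to the same total and 0 of 8 with the 2 groups fitted alone.

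**Figure D3:**
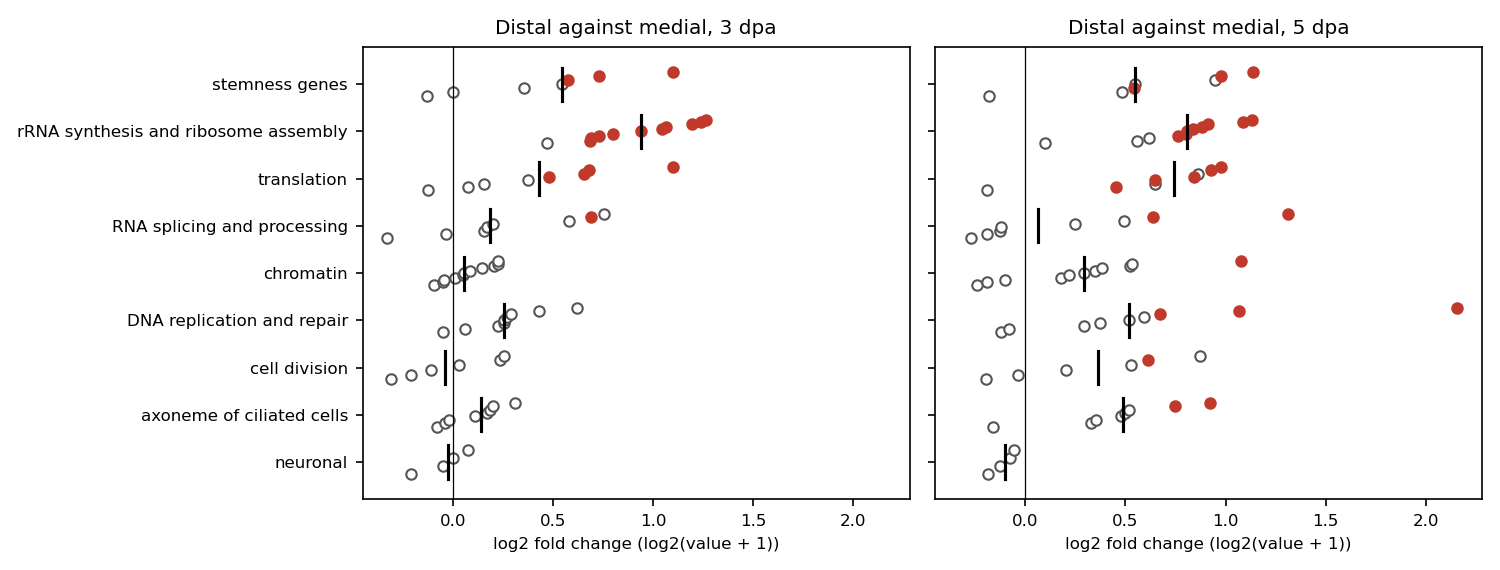
Log2 fold changes of distal against medial segments at 3 dpa (left) and 5 dpa (right) for the stemness genes and for chromosome 1 genes of 8 lists (1 row each). Points are genes, red where the adjusted p is under 0.05, and the bar is the median of the row. All 11 genes of ribosomal RNA synthesis and ribosome assembly lie right of 0 on both days, while the neuronal list has a median of −0.02 at 3 dpa and −0.10 at 5 dpa.

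Genes of the functions of Ptbp1-2, Hdac3 and Exo1-4 were counted in the same way. Of all genes, 5.04% passed as higher in distal than in medial segments at 3 dpa and 8.4% at 5 dpa. An unadjusted p under 0.05 in limma was reached by 20.8% and 28.1% of all genes. Of 8 splicing and RNA processing genes, 1 passed as higher at 3 dpa and 2 at 5 dpa, where Lsm7, a subunit of the ring that binds U6 RNA, was called at 1.31 (SE 0.28, adjusted p = 0.00411). Among 11 chromatin genes 0 passed at 3 dpa, also 0 at an unadjusted p under 0.05, and 1 at 5 dpa, the PHD finger gene Phf14-2 at 1.08 (adjusted p = 0.0114). Among 9 genes of DNA replication and repair 0 passed at 3 dpa, with 2 at an unadjusted p under 0.05, and 3 at 5 dpa. Psf1, a subunit of the GINS complex that the replication fork helicase needs, was called at 2.16 at 5 dpa (SE 0.24, adjusted p = 1.33e-05, limma), with 22.6 ± 5.42 TPM in distal and 4.25 ± 0.962 in medial samples (SD, n = 3). Of 6 cell division genes tested, 0 passed at 3 dpa (0 at an unadjusted p under 0.05) and 1 at 5 dpa. At 5 dpa 2 splicing, 3 chromatin, 5 replication and repair and 2 cell division genes had an unadjusted limma p under 0.05. No gene of these lists passed as lower, which 2.53% of all genes did at 3 dpa and 5.79% at 5 dpa. In lists this short, 0 or 1 genes past the test is near the share of all genes.

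Names for markers of other cell types were at hand for 2 kinds only. The summed level of 9 genes of the ciliary axoneme was 30.2 to 33.0 TPM in distal and 25.8 to 33.0 in medial samples at 3 dpa, and at 5 dpa it was 43.6 to 54.1 in distal samples, with medial samples at 27.7 to 32.4 and proximal ones at 33.6 to 50.6. With limma 0 of the 8 of them that were tested passed in distal against medial segments at 3 dpa and 2 at 5 dpa. At an unadjusted p under 0.05 the counts were 0 and 4. Of all genes 5.04% and 8.4% passed as higher at these days, and 20.8% and 28.1% had an unadjusted p under 0.05. The summed level of 4 neuronal genes at 3 dpa was 49.5 to 58.7 TPM in distal and 52.1 to 69.0 in medial samples. At 5 dpa it was 44.5 to 59.8 in distal and 56.8 to 62.7 in medial samples. Proximal samples read 45.1 to 55.4 at 3 dpa and 43.6 to 61.7 at 5 dpa. The sum mostly follows Elav4, which averaged 49.0 TPM over the explant samples, against 1.30, 3.25 and 1.15 for the others. In distal against medial segments 0 passed at either day with limma (0 at an unadjusted p under 0.05). Of these 13 genes, Wdr78 was listed at 0 in 1 explant sample. The part of ciliated or nerve cells in the results of the members was not tested.

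Each member was also matched with the chromosome 1 gene most like it over the 20 explant samples, among 118 named genes with a mean of at least 5 in both tables. These correlations of log2(value + 1) are across samples that share segments, days and sample scaling, and they are given as a description. Rpa1-1 and Diexf had the same nearest gene, Pur9, a bifunctional enzyme of purine synthesis (r = 0.90 and 0.84), and over the 8 time-course samples r was 0.94 and 0.91. Sylc was nearest to Grpe1, a cochaperone of mitochondrial protein import (r = 0.93, and 0.94 in the time course). Rl3 was nearest to Glna-7, a glutamine synthetase (r = 0.93), but r was −0.28 in the time course. The nearest genes of the others were Aspd for Exo1-4 (0.73, then 0.63), Prp39 for Ide (0.70, then 0.78), the heat shock gene Hsp83 for Hdac3 (0.67, then 0.76) and the RNA-binding Elav4 for Ptbp1-2 (0.64, then 0.54). Elav4 is also the gene with the highest level in the neuronal list. Between members, r over the explant samples was 0.87 for Rpa1-1 and Sylc and 0.67 for Rpa1-1 and Diexf. After group means were taken out these were 0.52 and −0.61. For Rl3 and Ptbp1-2 r was −0.84, then −0.81 after group means were taken out, and −0.04 in the time course.

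In regenerating arms of whole animals the control sample was the lowest of the 8 for 6 of the 7 members that reached 1 TPM in any of them, and this held for 27% of all 15432 such genes. With 1 pooled sample per stage there is no test, and the values describe these samples. Rescaled to the same total, the control was lowest for 7 of 7 members and 37.4% of genes. The column totals differed over 3-fold, from 551379 in the proximal part at 50% differentiation to 1866500 at stage 3, with 1736416 in the control, so the shape of each series depends on the scaling.

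**Figure D4:**
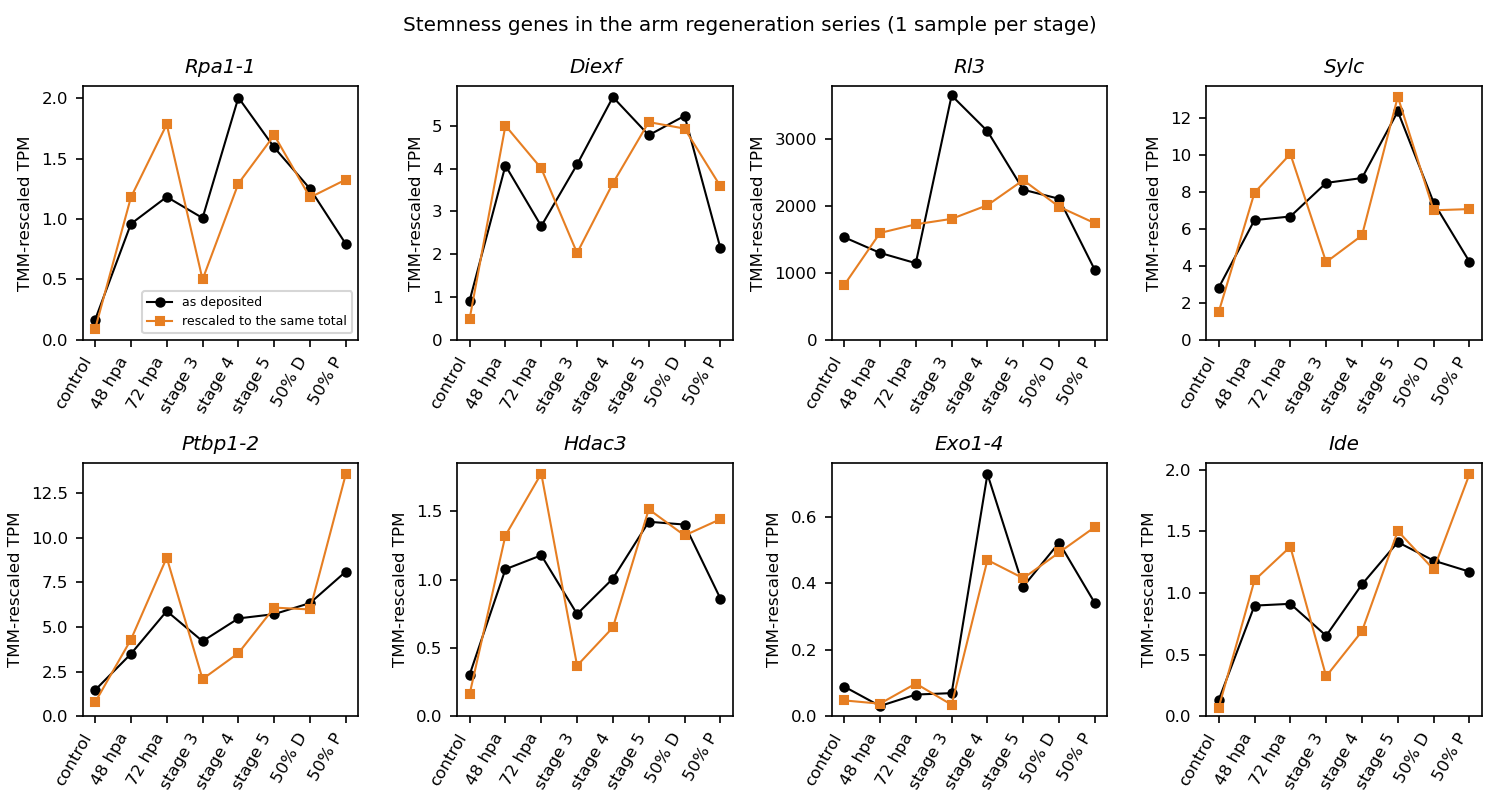
Levels of the 8 stemness genes in the 8 time-course samples (vertical axes, TPM as rescaled by TMM; horizontal axes, stage; 50% D and 50% P are distal and proximal parts at 50% differentiation). Circles are values as deposited, squares the same values after each sample was brought to the same total; lines join samples for reading and there are no replicates. The control is the lowest sample in both scalings for every gene but Rl3, at 1534 TPM as deposited, and Exo1-4.

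Rpa1-1 read 0.164 TPM in the control sample, 0.96 and 1.18 at 48 and 72 hpa, 1.01, 2.01 and 1.59 at stages 3, 4 and 5, and 1.25 in the distal and 0.792 in the proximal part at 50% differentiation. Diexf read 0.913, 4.07, 2.66, 4.10, 5.67, 4.78, 5.23 and 2.14 TPM in the same order. Both were highest at stage 4, and in the late regenerate both read higher in the distal than in the proximal part as deposited; after rescaling to the same total this was so for Diexf (4.94 and 3.59) and turned for Rpa1-1 (1.18 and 1.33). After that rescaling the highest samples were 72 hpa for Rpa1-1 and stage 5 for Diexf.

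Sylc read 2.81 TPM in the control, 6.48, 6.67, 8.49 and 8.76 from 48 hpa to stage 4, 12.4 at stage 5, 7.43 in the distal and 4.22 in the proximal part. Its highest sample was stage 5 in both scalings, at 4.40 times the control as deposited and 8.80 times after rescaling. Rl3 read 1534 TPM in the control, 1300 and 1146 at 48 and 72 hpa, 3657 at stage 3, 3123 at stage 4, 2246 at stage 5, 2110 in the distal and 1041 in the proximal part. As deposited, Rl3 was thus below the control in 3 samples, while after rescaling to the same total every later sample was above it, by 1.96 to 2.93 times.

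Ptbp1-2 read 1.46 TPM in the control, 3.49, 5.88, 4.19, 5.47 and 5.71 from 48 hpa to stage 5, 6.33 in the distal and 8.10 in the proximal part. As deposited it was the 1 member with its highest value in the proximal part of the late regenerate; after rescaling, Ide and Exo1-4 were highest there too. Hdac3 read 0.303 TPM in the control, between 0.748 and 1.42 from 48 hpa to stage 5, and 1.40 and 0.861 in the distal and proximal parts. The control of Ide was at 0.131 TPM and its other samples at 0.653 to 1.41, and Exo1-4 ran from 0.0306 to 0.0891 up to stage 3, then at 0.728, 0.39, 0.522 and 0.34. The controls of Rpa1-1, Hdac3, Exo1-4 and Ide are too low for a ratio to be read as more than an order of size.

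At least 2-fold above the control on the log2(value + 1) scale were 1 of 7 members for 48 hpa (14.1% of all genes), 2 for 72 hpa (15.1%), 4 at stage 3 (16.7%), 5 at stage 4 (19.7%), 5 at stage 5 (19.5%), 4 in the distal part (18.4%) and 1 in the proximal part at 50% differentiation (14.3%). After rescaling to the same total the counts were 4, 7, 3, 5, 7, 7 and 7, beside 34.6%, 43.2%, 10.1%, 17.7%, 31.5%, 27.6% and 47.1% of all genes. Stage 4 had 5 members in both scalings and 4 when the samples were scaled by the median of their ratios. None of the 7 was at least 2-fold below the control in any sample as deposited. Of the 11 genes of ribosomal RNA synthesis and ribosome assembly, the counts as deposited were 1, 1, 5, 6, 5, 4 and 0 in that order of samples, and 8, 10, 3, 7, 11, 9 and 7 after rescaling to the same total.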

How the data were processed

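Libraries from pooled arm tissue were quantified by the authors with kallisto, and the deposited signal of each gene is a TPM value that they rescaled between samples by TMM in edgeR, separately for the explant and the time-course table. These values are not counts and keep no depth, so no interval for counting error could be given. Column totals ranged from 1024512 to 2976429 in the explant table and from 551379 to 1866500 in the time course. Names, positions on the study's assembly and gene lists came from the annotation of chromosome 1.

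From there, log2(value + 1) of the 20 explant samples was fitted in 6 groups with limma 3.58.1 (R 4.3.3) with an intensity trend, over genes that reached 1 in no fewer than 3 samples, and p-values were adjusted over all genes tested. The study's own methods used DESeq2 on counts, which these values do not allow. The 8 time-course samples, 1 per condition, were compared by a 2-fold difference of log2(value + 1) from the control, with no test. The fit was tested on simulated data with independent noise and with changes larger than those of the members, placed in genes above a minimum level. It cannot show how the fit behaves for smaller changes, low values or shared batches. Alternatives were a pseudocount of 0.1, a minimum of 5, no filter, no trend, other scalings, a replicate block, the compared groups alone, each replicate left out, and, chosen after the data were seen, 3 samples left out. The members follow from the 3 annotation conditions, but this set of genes and the lists were chosen with earlier results of these data known. Genes named were the members, their namesakes, the gene of each list with the largest called change in distal against medial segments at each day, and the most correlated gene of each member. Syep, Sywc, Rl21, Rl37 and Wdr78 fall outside this rule and were named after their values were seen. The authors' columns of differential calls and clusters in the annotation were not used. Python 3.11.15, pandas 2.3.3 and matplotlib 3.10.9 made the summaries and plots.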

Additional observations from a re-analysis of the deposited data

Results flagged for a closer look

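Ide in medial replicate 3 at 3 dpa stood apart from the other samples of its group, at 3.63 TPM against 2.52, 2.64 and 2.70. Of 16 groups of 4 samples looked at in this way (8 members in 2 groups), it was 1, and chance gives about 1 in 20. The mean of that group was 2.88 ± 0.511 TPM (SD, n = 4). No other value of a member met a rule for a closer look, and groups of 3 samples were not examined.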

How the results depend on the processing

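The 3 members past the test in distal against medial segments at 3 dpa were 2 or 3 under every alternative run and 3 with each replicate left out, and Diexf stayed the 1 member called. With a minimum of 5, Rpa1-1, Hdac3 and Ide were too low to be tested in any comparison, so counts in that setting cover fewer members. At 5 dpa 1 member, Diexf, was called in the main analysis, 0 with the compared groups fitted alone and 0 after rescaling to the same total. With a pseudocount of 0.1 it was 2, and 2 without the 3 samples that list many genes at 0. Without these 3 samples Diexf was no longer called, at a log2 fold change of 0.75, while Rl3 was, at 1.12. The number past the test was 1 with the groups fitted alone and 3 in the main analysis. With 1 replicate left out these counts ran from 0 to 2 and from 2 to 5. In proximal against medial segments at 5 dpa, 1 member was called with a minimum of 5 (0 in the main analysis) and 2 passed, while 0 passed with the groups fitted alone, with the replicate block and without the 3 samples; leaving out 1 replicate gave 0 to 1 called and 0 to 3 past the test. Between distal and proximal segments at 3 dpa, and between days in distal segments, 1 member passed with the groups fitted alone and 1 without the 3 samples, where leaving out 1 replicate gave 0 to 1; in proximal segments between days it gave 0 to 1 called and 0 to 1 past the test. The cause of these shifts was not tested. No fold change printed for a member changed sign.

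In the time course, a pseudocount of 0.1 put 6 members at least 2-fold above the control for 48 hpa, 6 for 72 hpa, 7 for stage 3 and 5 in the proximal part at 50% differentiation. Rescaling to the same total gave 4 for 48 hpa, 7 for 72 hpa, 7 in the distal and 7 in the proximal part. Scaling by the median of ratios gave 1 at 72 hpa and 2 in the distal part.

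The labels number the explant replicates but do not say that a number marks a shared batch. Of 17 pairs of samples with the same number at the same day, 13 deviated from their group means with a correlation over 0.1 (median 0.18, lowest −0.041), and 16 of 19 samples correlated best with one of their own number, a hint from the data and not from the design. With the replicate block, 4 members instead of 3 passed in distal against medial segments at 5 dpa, as Rl3 then had an adjusted p of 0.0167, and Sylc in proximal segments had 0.0925 (limma). Comparisons between days could not be fitted with the block, as numbers were nested within days. Depth is not known from these values, which limits Exo1-4 and the low controls of the time course most.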
